A study of Malus domestica with 18 samples.

Results

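The late step of accelerated aging was followed in the axes of apple embryos that received no nitric oxide (NO). Dormant seeds of Malus domestica were kept in moist sand at 33 °C for 21 or 14 days, the embryos were isolated, left untreated and cultured for 48 h on wet filter paper, and the embryonic axes were then collected for RT-qPCR. The 3 control samples of seeds aged for 21 days were set against the 3 of seeds aged for 14 days, which together are 6 of the 18 samples of the series. The other groups were control axes of seeds aged for 7 days and axes of embryos fumigated with NO for 3 h after 7, 14 or 21 days of aging, with 3 samples each. All 18 target genes and the reference genes Sar1 and Pdi were measured in every sample. Every axis, untreated or not, came from a seed imbibed and heated at 33 °C and from an embryo cultured for 48 h, so no unaged seed was in the set and the levels are those after culture, not those at the end of aging. The methods give the tissue as embryonic axes, while the sample titles name embryos, and the panel holds no gene that would tell axis from cotyledon.

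Seeds that tolerate drying carry Lea (late embryogenesis abundant) proteins, which shield membranes and other proteins while water is lost, and heat shock proteins (Hsp), chaperones that keep proteins folded or take aggregates apart. Pimt, protein L-isoaspartyl methyltransferase, repairs aspartate and asparagine residues that change with age, and is known in other plants for its link with seed vigour. Tor is a kinase that couples growth and protein synthesis to nutrients, Raptor is its partner that binds substrates, and Saur genes are early targets of auxin. A cultured axis holds both stored and newly made transcripts.

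The primer pairs are shown for the genes with the largest rise and fall and for both reference genes, since several calls differed between the reference genes. Capitals mark the last 5 bases at the 3′ end of each primer, where extension begins, and each primer is written 5′ to 3′.
Hsp70c forward: caatgatgctcagagACAGG
Hsp70c reverse: accaccaagatcaaatACAGC
Tor forward: atctggtggagcagcTTTGC
Tor reverse: tcgttataccgttctgcATCAC
Pimt forward: gatggtggatcatttgAAGAG
Pimt reverse: ctatcaatagtctccatcacTTCAG
Lea1 forward: caccagatgtccgcACTTC
Lea1 reverse: acccgtgttggtccCAATA
Sar1 forward: ttgatttgggcgggcatcaGATTG
Sar1 reverse: tcatcagagaggagagcatCCAGC
Pdi forward: tgctgtacacagccaACGAT
Pdi reverse: catctttagcggcgttatCCTTG
Of the 18 target pairs, 13 are listed against more than 1 gene model, with up to 5 for Hsp70a, and 5 against a single one. Lea1 and Pimt are listed with 2 models each, Tor with 3 and Hsp70c with 1. Whether the models listed for a pair are separate gene copies is not given. Where they are, the cycle may sum their transcripts.

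The quantification cycle is the PCR cycle at which the product crosses a set signal, so that a higher cycle means less template. Cycles ran from 19.8 to 30.8 over the series. Sar1, a small GTPase of secretory vesicles, crossed at 23.0, 22.7 and 22.7 cycles after 21 days, against 23.1, 23.3 and 23.4 cycles after 14 days, and the groups did not overlap. Its mean was 22.8 ± 0.176 cycles at 21 days and 23.3 ± 0.131 cycles at 14 days (SD, n = 3 each), a difference of -0.42 cycles (p = 0.1 in a two-sided exact permutation test, which cannot go lower with 3 samples a side). Pdi, a protein disulfide isomerase, crossed at 25.1, 25.3 and 25.2 cycles after 21 days, against 25.2, 25.2 and 25.3 cycles after 14 days, with overlapping groups and a difference of -0.028 cycles (p = 0.8, same exact test). The mean of both stood at 24.0 ± 0.0328 cycles at 21 days and 24.2 ± 0.0876 cycles at 14 days, and differed by -0.22 cycles (p = 0.1, same exact test). Pdi crossed 2.35 ± 0.287 cycles after Sar1 at 21 days and 1.97 ± 0.116 cycles after it at 14 days (p = 0.2, same exact test). What each reference does to the results is given through the values with either gene alone.

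**Figure D1:**
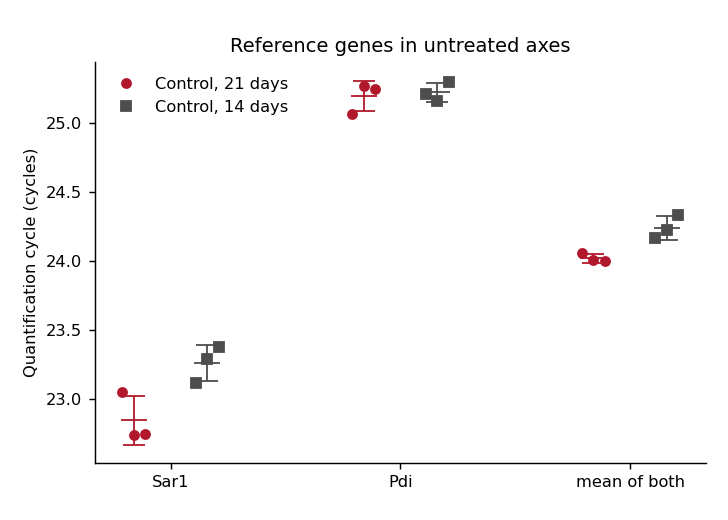
Quantification cycles (y axis, cycles; a higher cycle is less template) of Sar1, Pdi and their mean in control axes at 21 days (red circles) and 14 days (grey squares), with the mean and SD of 3 samples. Sar1 sat lower at 21 days in all 3 samples, with a difference of -0.42 cycles, while the Pdi samples of both times overlapped.

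A level is the mean cycle of Sar1 and Pdi minus the cycle of the target, in log2, with 1 doubling taken for each cycle. Relative levels below are set to 1 at the mean log2 level of the 14-day controls. The tests are from limma over the 9 control samples, with p-values adjusted over the 18 genes and called under 0.05. After 21 days, 16 of the 18 genes (88.9%) differed from 14 days, of which 7 (38.9%) were higher and 9 (50.0%) were lower. The panel is the whole table tested, so these shares are also the background for each family. In the same 16 genes (88.9%) no sample of one time overlapped the other. The median log2 change over the 18 genes was -0.20. Changes ran from -1.61 for Pimt to 1.68 for Hsp70c, with 3 genes above 1 and 5 below -1. Each sample is a bulk extract, so fewer cells of a type and less RNA per cell cannot be told apart.

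The normalizer shifted the log2 changes of all genes alike. Against the change with both references, Sar1 alone moved each log2 change by -0.19, Pdi alone by 0.19, no reference gene by 0.22 and centring on the 18 genes by 0.14. The standard error changed as well. It was 0.17 for every gene with Sar1 alone and with Pdi alone, against 0.13 for Hsp70a to 0.21 for Lea1 with both. A call lost with 1 reference may thus rest on the shift, on the standard error or on both. Normalized to Sar1 alone, 4 genes were called higher and 9 lower. Normalized to Pdi alone, 7 were called higher and 6 lower, and on the deposited values scaled to the 7-day control (the 7-day scale) the counts were 8 and 6. Changes on the 7-day scale lay close to those without a reference gene (median difference 0.0128, log2). The 7-day scale and the setting without a reference gene are therefore not independent alternatives. The calls of 7 genes held under all 17 alternatives tried, those of Tor and Cpn60a as higher and those of Pimt, Lea4, Lea2a, ClpB4 and ClpB1 as lower.

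**Figure D2:**
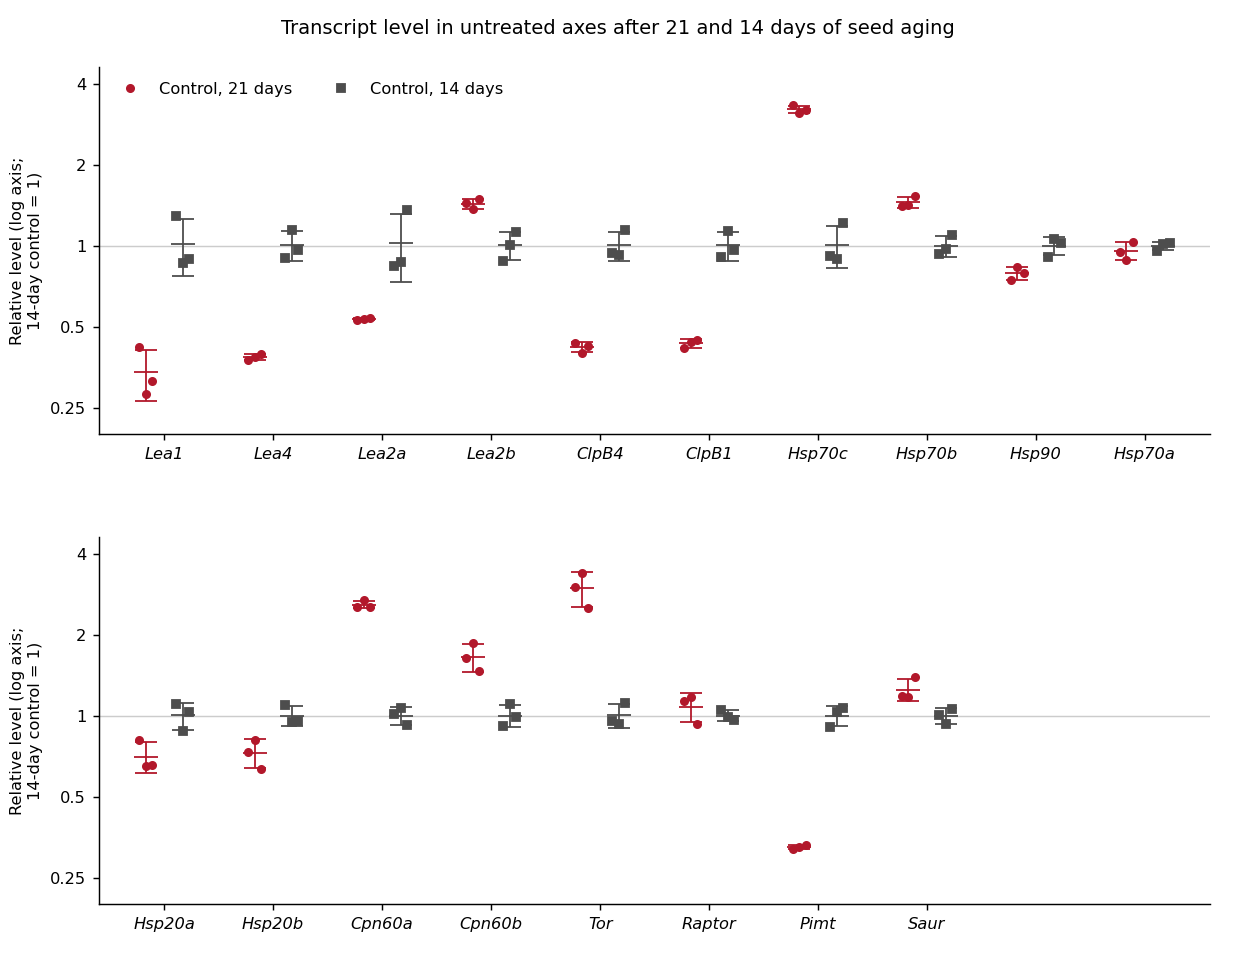
Relative level (y axis, log scale, 14-day control = 1) of the 18 genes in control axes at 21 days (red circles) and 14 days (grey squares); points are samples and bars the mean and SD of 3. The 21-day samples of Hsp70c, Tor and Cpn60a stood between 2.51 and 3.40 and those of Pimt between 0.322 and 0.333, and the samples of Raptor and Hsp70a overlapped between times.

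Among the 4 Lea genes, 3 fell (Lea1, Lea4 and Lea2a) and 1 rose (Lea2b) between 14 and 21 days, with a median log2 change of -1.14 against -0.20 over all 18 genes. Lea1, whose closest Arabidopsis protein is LEA46, stood at 0.422, 0.281 and 0.317 after 21 days, against 1.30, 0.864 and 0.893 after 14 days. Its highest 21-day sample lay 1.03 log2 units below its lowest 14-day sample, although Lea1 also varied widely within each time. The mean was 0.340 ± 0.0729 at 21 days and 1.02 ± 0.242 at 14 days (SD, n = 3 each), a log2 change of -1.58 (standard error 0.21, adjusted p = 9.86e-08). With the spread of Lea1 alone, without moderation across genes, the standard error was 0.35 (adjusted p = 0.00746). Lea4, matched to the Arabidopsis protein ECP63, stood at 0.378, 0.387 and 0.397 after 21 days, against 0.901, 1.15 and 0.967 after 14 days. All its 21-day samples were thus close together and below every 14-day sample, with a log2 change of -1.37 (standard error 0.14, adjusted p = 1.35e-09).

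Lea2a, which carries the WHy domain of one Lea family, stood at 0.531, 0.535 and 0.540 after 21 days, against 0.841, 0.875 and 1.36 after 14 days. Replicate 3 of 14 days was high and the other 5 samples were tight. The log2 SD of Lea2a was 0.0123 at 21 days and 0.38 at 14 days, the lowest and the highest of the 18 genes at those times, and the log2 change was -0.90 (standard error 0.17, adjusted p = 2.86e-05). Lea2b, which holds the LEA_2 domain, moved the other way. It stood at 1.44, 1.37 and 1.49 after 21 days, against 0.881, 1.01 and 1.12 after 14 days, and the groups did not overlap (log2 change 0.52, standard error 0.15, adjusted p = 0.00225). With Sar1 alone this rise was no longer called (0.32, adjusted p = 0.0784), and the fall of Lea1 was not called by the methods' test across the aging times (adjusted p = 0.0612). That test, on linear values, shares 1 estimate of the spread with the 7-day controls. The linear SD of Lea1 was 0.426 in those, against 0.0729 at 21 days and 0.242 at 14 days.

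Both ClpB genes fell. ClpB proteins, the Hsp100 class, pull proteins out of aggregates, and in Arabidopsis ClpB1 acts in the cytosol and ClpB4 in mitochondria. ClpB4 stood at 0.438, 0.401 and 0.427 after 21 days, against 0.942, 0.923 and 1.15 after 14 days (log2 change -1.25, standard error 0.14, adjusted p = 5.29e-09). ClpB1 stood at 0.417, 0.440 and 0.449 after 21 days, against 0.908, 1.14 and 0.966 after 14 days (log2 change -1.20, standard error 0.14, adjusted p = 5.40e-09). In both genes no 21-day sample reached a 14-day sample.

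The Hsp70 and Hsp90 chaperones did not move together, with 2 genes higher, 1 lower and 1 not called. Hsp70c, matched to a mitochondrial Hsp70 of Arabidopsis, had the largest rise of the panel. It stood at 3.32, 3.12 and 3.20 after 21 days, against 0.921, 0.892 and 1.22 after 14 days, or 3.22 ± 0.0996 and 1.01 ± 0.179 on average (SD, n = 3 each). The lowest 21-day sample was 1.36 log2 units above the highest 14-day sample (log2 change 1.68, standard error 0.15, adjusted p = 1.18e-10). Its mean cycle was 28.7 ± 0.0233 at 21 days and 30.6 ± 0.171 at 14 days, so the 14-day level was read near the upper end of the cycles of the series. The call was lost on linear values (adjusted p = 0.292) and in the methods' test across the aging times (adjusted p = 0.547), which is also on linear values. Both of these share 1 estimate of the spread with the 7-day controls. The linear SD of Hsp70c was 4.24 in those, against 0.0996 at 21 days and 0.179 at 14 days. Linear values were not tested without the 7-day controls.

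Hsp70b, matched to the Arabidopsis Hsp70-1 of the cytosol, stood at 1.41, 1.42 and 1.53 after 21 days, against 0.932, 0.972 and 1.10 after 14 days. No samples overlapped (log2 change 0.54, standard error 0.14, adjusted p = 8.02e-04), and with Sar1 alone the rise was not called (0.34, adjusted p = 0.0666). Hsp90, a chaperone of kinases and receptors in the cytosol, stood at 0.746, 0.832 and 0.796 after 21 days, against 0.913, 1.06 and 1.03 after 14 days. The gap between its groups was 0.13 log2 units, and the log2 change was -0.34 (standard error 0.14, adjusted p = 0.0239). That call was lost with Pdi alone (-0.14, adjusted p = 0.43), without a reference gene (-0.12, adjusted p = 0.234), when centred (-0.20, adjusted p = 0.0662) and on the 7-day scale (-0.11, adjusted p = 0.324). It was also lost without replicate 1 (-0.30, adjusted p = 0.129) or 3 (-0.34, adjusted p = 0.0522) of 21 days. The same held without replicate 2 (-0.29, adjusted p = 0.0889) or 3 (-0.32, adjusted p = 0.0657) of 14 days. The standard error was 0.16 to 0.19 in these fits, against 0.14 with all samples.

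Hsp70a, matched to the Arabidopsis Hsp70-16, was not called. Its samples stood at 0.946, 0.890 and 1.04 after 21 days, against 0.959, 1.02 and 1.02 after 14 days, and overlapped. The log2 change was -0.066, with a 95% interval from -0.34 to 0.21 (adjusted p = 0.629), so a change beyond 0.790 to 1.16 times the 14-day level lay outside the interval with this normalizer. The sign turned to 0.13 with Pdi alone, 0.16 without a reference gene, 0.072 when centred and 0.14 on the 7-day scale, none of them called.

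Both Hsp20 genes, small heat shock proteins that hold unfolding proteins in solution, were lower by a modest amount. Hsp20a, of the cytosolic class I, stood at 0.812, 0.651 and 0.655 after 21 days, against 1.10, 0.878 and 1.03 after 14 days (log2 change -0.51, standard error 0.15, adjusted p = 0.00225). Hsp20b, of the cytosolic class II, stood at 0.736, 0.815 and 0.636 after 21 days, against 1.10, 0.951 and 0.957 after 14 days (log2 change -0.46, standard error 0.14, adjusted p = 0.00341). The groups did not overlap in either gene, but the gaps were only 0.11 log2 units for Hsp20a and 0.22 for Hsp20b. With Pdi alone neither was called (-0.32, adjusted p = 0.092 for Hsp20a; -0.27, adjusted p = 0.138 for Hsp20b), nor on the 7-day scale (-0.28, adjusted p = 0.0654 for Hsp20a; -0.24, adjusted p = 0.0782 for Hsp20b). Hsp20a was further lost on linear values (adjusted p = 0.125) and in the methods' test (adjusted p = 0.274), and Hsp20b without a reference gene (-0.24, adjusted p = 0.0661). The linear SD of Hsp20a was 0.338 in the 7-day controls, which share the spread in those linear tests, against 0.0916 at 21 days and 0.115 at 14 days.

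Both Cpn60 genes rose. Cpn60 subunits form the barrel of the mitochondrial chaperonin, in which imported proteins fold. Cpn60a stood at 2.54, 2.68 and 2.54 after 21 days, against 1.02, 1.07 and 0.922 after 14 days, and every 21-day sample was more than 1.25 log2 units above the highest 14-day sample (log2 change 1.37, standard error 0.14, adjusted p = 1.35e-09). Cpn60b stood at 1.63, 1.86 and 1.46 after 21 days, against 0.919, 1.10 and 0.987 after 14 days (log2 change 0.72, standard error 0.15, adjusted p = 9.08e-05). Its 21-day samples were more spread but all lay above the 14-day samples, and the call was lost only in the methods' test across the aging times (adjusted p = 0.0852). That test shares 1 estimate of the spread with the 7-day controls. The linear SD of Cpn60b was 0.471 in those, against 0.198 at 21 days and 0.0929 at 14 days. Of the 4 chaperone genes matched to mitochondrial proteins, Hsp70c, Cpn60a and Cpn60b rose and ClpB4 fell. This grouping by location was made after the values were seen.

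**Figure D3:**
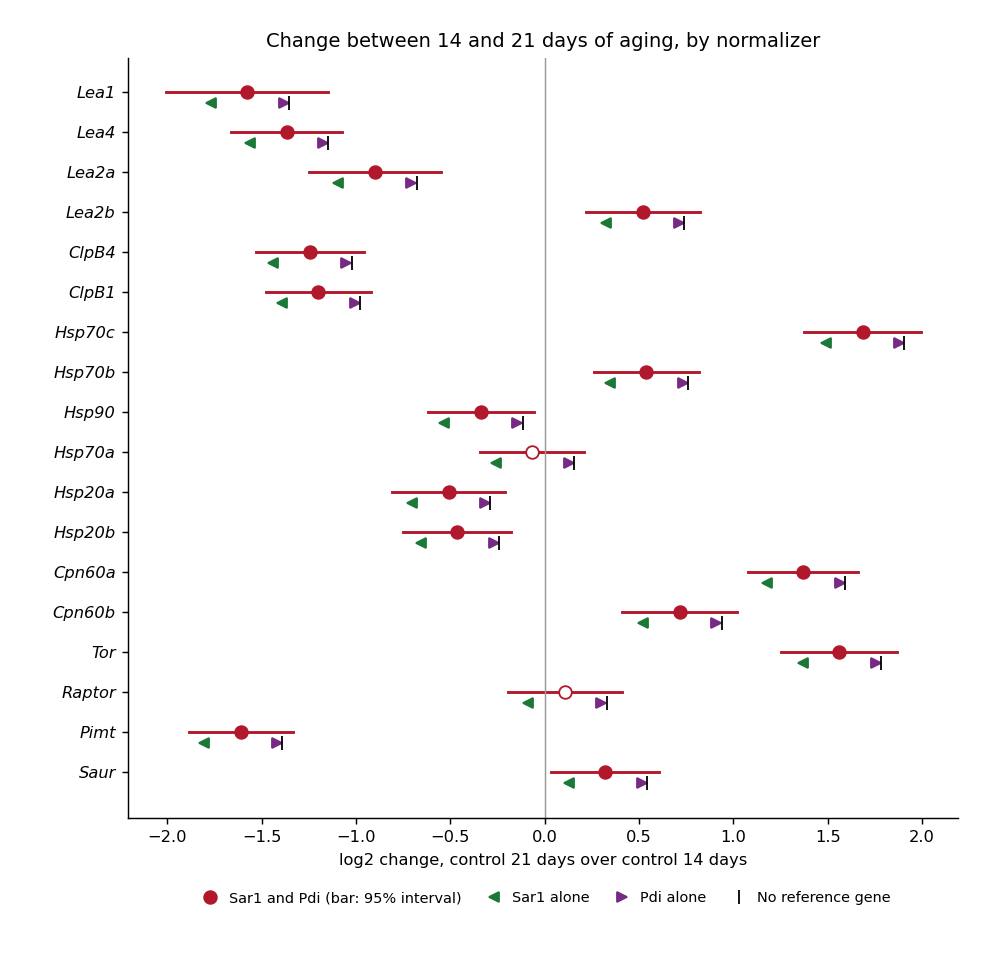
log2 change at 21 days over 14 days in control axes (x axis) for the 18 genes (rows), with Sar1 and Pdi (circles, 95% interval; open where not called), Sar1 alone, Pdi alone and no reference gene. Each normalizer shifts every gene by the same amount, and only Raptor and Hsp70a change sign.

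The kinase gene Tor rose while the change of its partner Raptor was not called. Tor stood at 3.01, 3.40 and 2.51 after 21 days, against 0.958, 0.934 and 1.12 after 14 days, or 2.97 ± 0.447 and 1.0 ± 0.101 on average (SD, n = 3 each). The lowest 21-day sample was 1.17 log2 units above the highest 14-day sample (log2 change 1.56, standard error 0.15, adjusted p = 3.69e-10). Raptor stood at 1.14, 1.18 and 0.934 after 21 days, against 1.05, 0.986 and 0.963 after 14 days, with replicate 3 of 21 days below all 14-day samples and the other two above. Its log2 change was 0.11, with a 95% interval from -0.20 to 0.41 (adjusted p = 0.503). Raptor turned to -0.087 with Sar1 alone, and was called higher without a reference gene (0.33, adjusted p = 0.0182), when centred (0.24, adjusted p = 0.0463) and on the 7-day scale (0.33, adjusted p = 0.0354).

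Pimt showed the largest fall of the panel. It stood at 0.322, 0.326 and 0.333 after 21 days, against 0.907, 1.03 and 1.07 after 14 days, or 0.327 ± 0.00565 and 1.0 ± 0.0856 on average (SD, n = 3 each). The log2 change was -1.61 (standard error 0.13, adjusted p = 5.15e-11), and the highest 21-day sample lay 1.44 log2 units below the lowest 14-day sample. The auxin target Saur, matched to the Arabidopsis SAUR36, stood at 1.19, 1.18 and 1.39 after 21 days, against 1.01, 0.933 and 1.06 after 14 days. Its groups were 0.15 log2 units apart, and it passed the threshold with a log2 change of 0.32 (standard error 0.14, adjusted p = 0.0324). That rise was not called with Sar1 alone (0.13, adjusted p = 0.499), on linear values (adjusted p = 0.0517) or in the methods' test (adjusted p = 0.113). The call was also lost without replicate 1 (0.35, adjusted p = 0.072) or 3 (0.24, adjusted p = 0.161) of 21 days. The same held without replicate 1 (0.33, adjusted p = 0.0601) or 2 (0.27, adjusted p = 0.115) of 14 days. Without replicate 1 of either time the change was no smaller, while the standard error rose to 0.19 (21 days) and 0.16 (14 days).

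Replicates were closer at 21 than at 14 days for 11 of the 18 genes. The median log2 SD within the group was 0.072 at 21 days and 0.14 at 14 days, and 0.20 in the 7-day controls. The mean of Sar1 and Pdi enters every level. Its SD was 0.0328 cycles at 21 days, 0.0876 at 14 days and 0.135 at 7 days, so the spreads of the 18 genes are not separate results. No test was made of these spreads, which rest on 3 samples each.

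The 7-day controls place the late step in the whole course, in which the earlier step shares the 14-day samples with the late one, so that the values are only set side by side. In the 7-day controls Sar1 and Pdi crossed at 23.5 ± 0.135 cycles on average, below both later times, and the direction of the earlier step depended on the normalizer for several genes. At 7 days Hsp70c stood at 25.1 ± 4.24 (SD, n = 3). It had a log2 change of -4.64 from 7 to 14 days (adjusted p = 3.59e-21) and of 1.68 from 14 to 21 days, and its 21-day level differed from that at 7 days by -2.95 (adjusted p = 3.69e-16). Tor changed by -1.26 (adjusted p = 1.53e-08) in the first step and by 1.56 in the second, Cpn60a by -1.28 (adjusted p = 5.88e-09) and 1.37, and Cpn60b by -1.39 (adjusted p = 5.88e-09) and 0.72. These genes had their lowest mean level at 14 days, and both steps kept their direction with either reference alone, with none, when centred and on the 7-day scale. Saur did so as well, with smaller changes of -0.47 (adjusted p = 0.00381) and then 0.32. Raptor (-0.33, then 0.11) and Hsp70b (-0.12, then 0.54) were also lowest at 14 days with both references, but did not keep their directions under every normalizer.

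Pimt ran the opposite course, with a log2 change of 1.19 (adjusted p = 7.25e-09) from 7 to 14 days and of -1.61 after that, and both directions held with those normalizers. ClpB1 changed by 0.54 (adjusted p = 0.00103) and then by -1.20, and ClpB4 by 0.30 (adjusted p = 0.0497) and then by -1.25. The earlier change of ClpB1 turned to -0.19 without a reference gene (adjusted p = 0.118) and on the 7-day scale (adjusted p = 0.142), neither called. That of ClpB4 turned to -0.42 in both, and was then called lower (adjusted p = 8.60e-04 and 0.00592). With Sar1 alone it was 0.17 and not called (adjusted p = 0.362). Whether the ClpB genes peaked at 14 days or declined from 7 days on thus depended on the normalizer, while their fall in the late step did not. Lea1 and Lea4 were not called in the first step, with changes of -0.13 (adjusted p = 0.574) and 0.26 (adjusted p = 0.0940), and fell in the second. Without a reference gene both were called lower in the first step as well (Lea1 -0.85, adjusted p = 0.00300, and Lea4 -0.46, adjusted p = 0.00120). The same held on the 7-day scale (adjusted p = 0.00550 for Lea1 and 0.00150 for Lea4). Lea4 was called higher with Pdi alone (0.39, adjusted p = 0.0365) and when centred (0.59, adjusted p = 5.28e-05). Hsp20a fell in both steps, with changes of -1.33 (adjusted p = 5.88e-09) and then -0.51. With both references, Hsp90 (0.89, then -0.34), Hsp70a (0.90, then -0.066), Hsp20b (0.47, then -0.46) and Lea2a (0.40, then -0.90) were also highest at 14 days. Their first changes were all called (adjusted p = 1.31e-06, 8.82e-07, 0.00423 and 0.0412). Without a reference gene the first change was -0.26 for Hsp20b and -0.33 for Lea2a. Lea2b changed by 0.039 (adjusted p = 0.792) and then by 0.52.

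**Figure D4:**
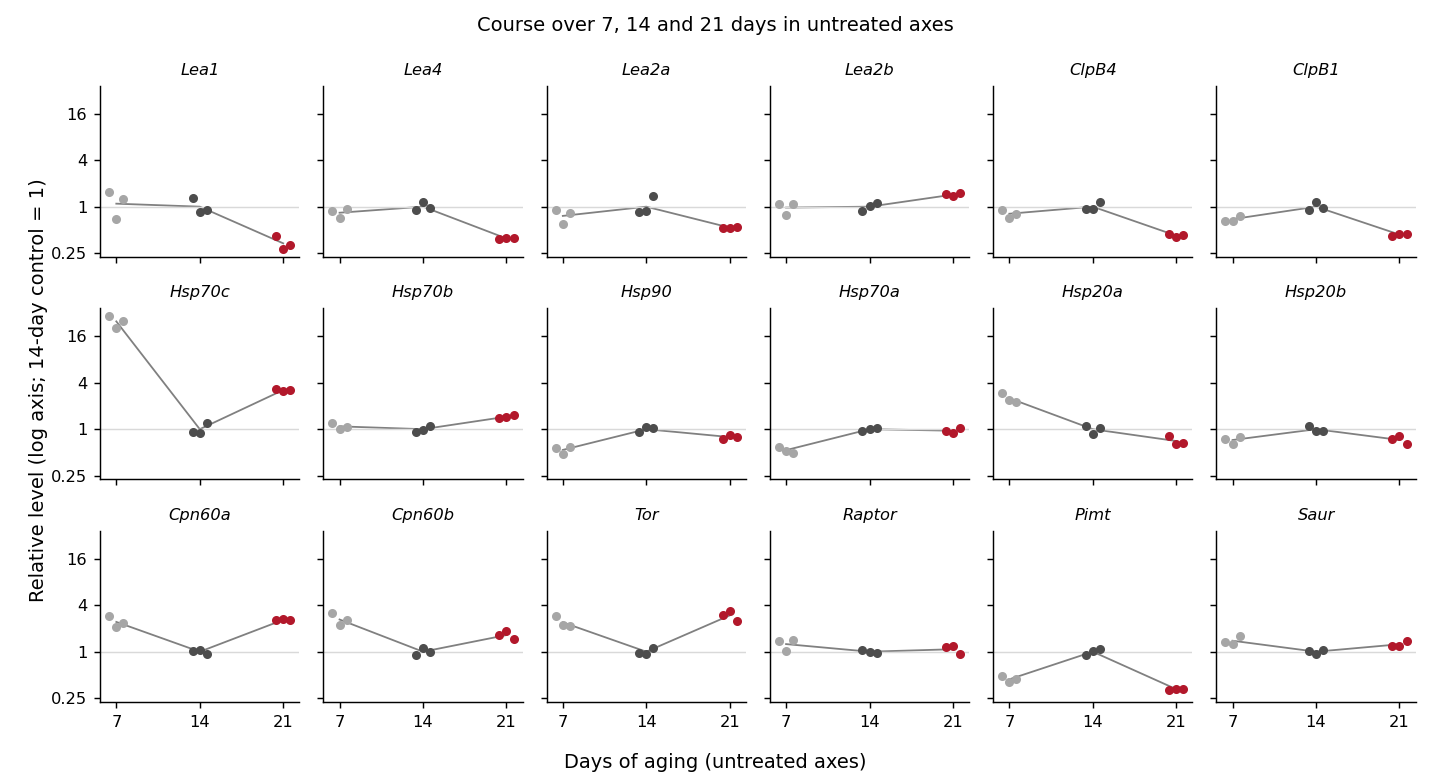
Relative level (y axis, log scale, 14-day control = 1) in control axes by days of aging (x axis, 7, 14 and 21); points are samples and lines join the means of the log2 levels. Hsp70c, Tor, Cpn60a, Cpn60b, Saur, Raptor and Hsp70b had their lowest mean level at 14 days, and Pimt and Hsp90 their highest. ClpB1, ClpB4, Hsp70a, Hsp20b, Lea2a and Lea4 were highest at 14 days on this scale but not without a reference gene.

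The same late step in NO-treated axes was compared with that in untreated axes in 1 fit over all 18 samples. The change between 14 and 21 days differed between untreated and NO-treated axes for 9 of the 18 genes (50.0%), with the control change higher for 6 and lower for 3. Levels are again relative to the untreated 14-day axes. Hsp70c, which rose in untreated axes, was at 1.16, 1.42 and 1.41 in NO-treated axes after 21 days, against 10.7, 11.1 and 9.92 in NO-treated axes after 14 days. The control change minus the NO change was 4.68 in log2 (standard error 0.20, adjusted p = 2.37e-18). Pimt, which fell in untreated axes, was at 0.25, 0.363 and 0.308 with NO after 21 days, against 0.188, 0.198 and 0.176 with NO after 14 days. At 21 days the NO-treated samples lay on both sides of the untreated ones, and the difference between the changes was -2.31 (standard error 0.19, adjusted p = 1.39e-11).

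Raptor, not called in untreated axes, was at 0.217, 0.262 and 0.265 with NO after 21 days, against 0.937, 0.756 and 0.826 with NO after 14 days, and the changes differed by 1.87 (standard error 0.21, adjusted p = 4.90e-09). Hsp20a was lower at 21 days in both, with log2 changes of -0.51 in untreated and -2.37 in NO-treated axes, and the changes differed by 1.86 (adjusted p = 5.41e-09). Saur was higher in both, by 0.32 and 1.57, with a difference of -1.25 (adjusted p = 7.64e-07). Hsp70a changed by -0.066 in untreated axes, not called, and fell by 1.07 with NO, with a difference of 1.0 (adjusted p = 2.26e-05).

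Smaller differences were found for Lea2a (-0.73, adjusted p = 0.0112) and Cpn60a (0.60, adjusted p = 0.0144). The Lea2a difference was not called with Pdi alone (-0.49, adjusted p = 0.0918), on linear values or without control replicate 3 of 14 days (-0.51, adjusted p = 0.0605). That of Cpn60a was not called with Sar1 alone (0.36, adjusted p = 0.228), when centred (0.13, adjusted p = 0.402) or on linear values. For Hsp70b the cycles gave a difference of 2.45 (adjusted p = 1.84e-12), but the deposited relative expression gave 0.098 (95% interval -0.22 to 0.42, adjusted p = 0.601), so the 2 deposited forms of this gene disagree in the NO samples. The other 9 genes were not called, though 6 of them were called under at least 1 alternative. ClpB4 changed by -1.25 in untreated and -0.83 in NO-treated axes and lay just outside the threshold (difference -0.42, 95% interval -0.79 to -0.045, adjusted p = 0.0530). It was called lower under 8 of the 20 alternatives, with Sar1 alone (adjusted p = 0.0153), without a reference gene (adjusted p = 0.0218), when centred (adjusted p = 2.26e-06), without moderation (adjusted p = 0.0337), on the deposited relative expression (adjusted p = 0.0389) and without replicate 1 (adjusted p = 0.0405) or 3 (adjusted p = 0.0403) of NO at 21 days or control replicate 2 of 14 days (adjusted p = 0.0411). Tor changed by 1.56 and 1.94 (difference -0.37, interval -0.89 to 0.14, adjusted p = 0.225). Its difference was called lower with Sar1 alone (-0.61, adjusted p = 0.0444) and when centred (-0.84, adjusted p = 8.04e-04), so the call depended on the normalizer. The difference of linear levels was called higher (1.33, adjusted p = 9.41e-04). That is another quantity, in units of the untreated 14-day level. On it Tor went from 1.0 to 2.97 in untreated and from 0.228 to 0.866 in NO-treated axes.

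Lea4 changed by -1.37 in untreated and -1.39 in NO-treated axes (difference 0.025, interval -0.39 to 0.44, adjusted p = 0.903), ClpB1 by -1.20 and -1.01 (difference -0.19, interval -0.61 to 0.22, adjusted p = 0.451), and Hsp90 by -0.34 and -0.39 (difference 0.051, interval -0.32 to 0.42, adjusted p = 0.823). When centred, all these were called lower, Lea4 by -0.44 (adjusted p = 0.0117), ClpB1 by -0.66 (adjusted p = 0.00155) and Hsp90 by -0.41 (adjusted p = 0.00431). Lea1 (0.58, adjusted p = 0.160) was called higher with Pdi alone (adjusted p = 0.0395) and without NO replicate 3 of 21 days (adjusted p = 0.0185). Lea2b, Cpn60b and Hsp20b were not called under any alternative.

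**Figure D5:**
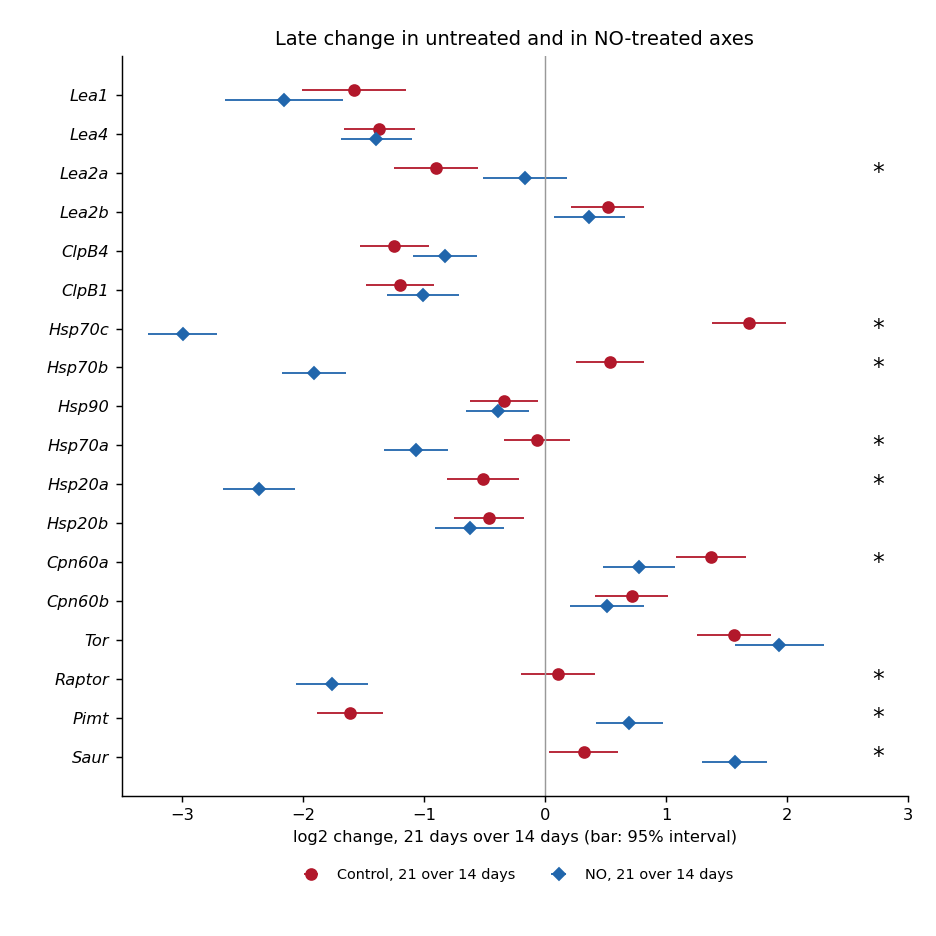
log2 change at 21 days over 14 days (x axis) in control axes (red circles) and NO-treated axes (blue diamonds), with 95% intervals, for the 18 genes (rows); a star marks the 9 genes whose changes differed. Hsp70c and Hsp70b rose in control axes and fell with NO, and Pimt fell in control axes and rose with NO, though Hsp70b differs between the cycles and the deposited relative expression.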

How the data were processed

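Untreated axes aged for 21 and 14 days (3 samples each) were compared for 18 genes. The members and gene families were chosen with earlier results of these data known. The authors deposited quantification cycles of RT-qPCR (3 technical repeats, SYBR Green, a fixed mass of RNA), as the mean of each sample. They also deposited relative expression, a ratio to the control of the same day, and for the controls a ratio to the 7-day control, used only as a check. No aligner or genome applies, and primer efficiencies are not given in the sources used here. Levels were the mean cycle of Sar1 and Pdi minus the target cycle (log2, 1 doubling per cycle). They were tested with limma 3.58.1 (R 4.3.3) over the 9 controls, moderated variances (prior 20.7 degrees of freedom), Benjamini-Hochberg adjustment over 18 genes and a threshold of 0.05, and the difference from NO-treated axes over all 18 samples. With 18 genes the moderation borrows from few. The script was tested on simulated data. Differences in reference cycles were tested by exact permutation.

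All 18 genes and both references were described, by family and within it by the size of the change. No low-value filter was applied. The deposited change on the 7-day scale differed from that in target cycles without a reference gene by a median of 0.0128 (log2) and from the change used here by 0.217. In the 21- and 14-day controls the deposited relative expression followed Sar1 and Pdi in 8 genes (root mean square difference at most 0.00672, log2), while for Tor, Raptor, the 4 Lea genes, Hsp90, Hsp70b, Cpn60a and Cpn60b it differed by 0.109 to 0.138. The labels give replicate numbers. Deviations from the group mean were correlated over the 18 genes. Same-numbered 21- and 14-day samples gave 0.777, 0.388 and 0.258, against -0.618 to 0.159 for unlike numbers. Deviations cancel out within a group, so positive values for like numbers lower those for unlike ones, and the contrast cannot settle a pairing. The labels do not state one. The main tests did not pair the samples, and a replicate block was used only as an alternative. The number of samples limits precision. The methods state independent replications of aging and biological replicates. The p-values rest on the spread between these samples, moderated toward a spread shared by the genes (prior 20.7 against 6 residual degrees of freedom). The genes share the reference cycles, and with Sar1 or Pdi alone 1 pooled standard error served every gene. Alternatives were other normalizers, linear values, no moderation, a replicate block, other sample sets, the deposited ratios, the methods' test across the aging times (linear values, p adjusted over the pairs of times and not over genes) and leaving out each sample.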

Additional observations from a re-analysis of the deposited data

Results flagged for a closer look

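For 9 genes the change between 14 and 21 days differed between untreated and NO-treated axes by a test of the difference itself (limma, adjusted p under 0.05). The log2 difference, control change minus NO change, was positive for Hsp70c (4.68), Hsp70b (2.45), Raptor (1.87), Hsp20a (1.86), Hsp70a (1.0) and Cpn60a (0.60). It was negative for Pimt (-2.31), Saur (-1.25) and Lea2a (-0.73). All but Hsp70b were called on the deposited relative expression as well, where Hsp70b gave 0.098 (adjusted p = 0.601). The value for Hsp70b therefore depends on which deposited form is read, and the cause was not tested.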

How the results depend on the processing

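Against 7 genes higher and 9 lower at 21 than at 14 days, 4 were higher with Sar1 alone and 4 with the methods' test across the aging times. Leaving out each sample gave 6 to 7 higher and 8 to 9 lower, and 8 to 11 genes whose change differed from NO (9 with all samples). Other settings kept these counts within 1.5 times. The replicate block, in a paired fit, gave 7 higher and 9 lower and 9 differing from NO, and changed no call. The reference cycles differed by -0.22 in the mean of both, by -0.42 for Sar1 alone and by -0.028 for Pdi alone, and by -0.26 to -0.17 when a sample was left out. Raptor, not called, turned to -0.087 with Sar1 alone, and Hsp70a, not called, to 0.13 with Pdi alone, 0.16 without a reference gene, 0.072 when centred and 0.14 on the deposited 7-day scale. Of 306 values for single genes under the alternatives, 270 kept direction and side of the threshold, 28 were no longer called, 3 became called and 5 turned. Of 180 values for the 9 genes whose change differed from NO, 7 were no longer called. Among the 9 genes not called there, the difference turned for Tor on linear levels (1.33), for Lea1 on linear levels (-0.0066), for ClpB1 with Pdi alone (0.046), for Lea2b, Cpn60b and Hsp20b with Sar1 alone (-0.086, -0.037 and -0.079) and when centred (-0.31, -0.26 and -0.30), for Lea4 and Hsp90 with Sar1 alone (-0.21 and -0.19), when centred (-0.44 and -0.41) and on the deposited relative expression (-0.12 and -0.094), for Lea4 on linear levels (-0.16), and with a sample left out for Lea4 (-0.062 to 0.15) and Hsp90 (-0.028 to 0.099). Values on linear levels are differences of relative levels and not of log2 changes. In the step from 7 to 14 days, ClpB1, ClpB4 and Lea4 turned without a reference gene (-0.19, -0.42 and -0.46) and on the deposited 7-day scale (-0.19, -0.42 and -0.44), and Lea1 with Pdi alone (0.0011) and when centred (0.20). Lea2a, Hsp20b and Lea2b also turned without a reference gene (-0.33, -0.26 and -0.69) and on the deposited 7-day scale (-0.34, -0.26 and -0.67). Lea2b turned with Sar1 alone (-0.091), Raptor when centred (0.0036), and Hsp70b with Pdi alone (0.0089) and when centred (0.21). The settings for that step, and the comparison with the deposited relative expression, were chosen after seeing the data. Depth has no counterpart in cycles.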
